A study of Mus musculus with 3 samples.

Results

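The interleukin-6 (IL-6) family was examined in mouse bone marrow (BM) through 6 genes, taken by symbol from the 17250 gene names of the deposited tables. These were the cytokine genes Il6, Osm (oncostatin M) and Lif (leukaemia inhibitory factor), the receptor genes Il6ra and Il6st, and the transcription factor gene Stat3. Each of the 6 symbols had a single row, so no choice between rows was needed. The BM cells were flushed from the femur, tibia, pelvis and humerus of C57BL/6 mice aged 6 to 8 weeks. LECT2, leukocyte cell-derived chemotaxin 2, is a secreted protein made mainly by the liver, and a recombinant form produced in CHO cells was injected under the skin every day at 300 μg/kg. One library of polyadenylated RNA was sequenced from mice of 0 days, 1 from mice injected for 3 days and 1 from mice injected for 5 days. The 0-day library carries no injection label, so the effect of LECT2 and that of the injections cannot be told apart. Each time point is 1 library, so differences between mice, in marrow handling or in library preparation cannot be told apart from either.

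IL-6 family cytokines share the signal-transducing receptor chain gp130, which Il6st encodes. IL-6 first binds its own receptor chain, encoded by Il6ra, on the cell surface or as a shed soluble form, and the complex then joins gp130. Oncostatin M and LIF bring gp130 together with the receptor chains of Osmr and Lifr. Janus kinases bound to gp130 phosphorylate STAT3, which enters the nucleus and switches on its target genes, among them the feedback inhibitor Socs3. In BM, IL-6 is known for promoting myeloid cell production, and oncostatin M for acting on osteoblasts and other stromal cells.

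The gene tables held from 15146983 (3 days) to 15523952 (0 days) reads per library. Levels are given as RPKM, the reads of a gene scaled to its length in kilobases and to the reads on all listed genes of its library. Changes are log2 ratios of RPKM + 0.1, with an exact 95% interval of the ratio of the read counts. With 1 library per time point no test was possible. The intervals cover counting error only, reads that carry no molecular identifier do not count separate molecules, and the spread between mice is unknown. A gene was counted as lower or higher where its level differed at least 2-fold and reached 1 RPKM in either library. For all genes that reached 1 RPKM the median of the log2 ratio against 0 days was 0.09 after 3 days and 0.31 after 5. Changes also followed gene length. Among the shortest genes with a mean of 1 RPKM or more (the lowest decile, up to 1050 bases) the median of the log2 ratio at 5 days was -0.43, and among the longest (the highest decile, from 5800 bases) it was 0.85. Values with this trend removed therefore stand beside the members' values, since in the tables Il6 (1087 bases) and Osm (1907 bases) are short and Il6ra (3343 bases) and Il6st (5452 bases) are longer.

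Of 6 members, 1 (Il6) was lower and 1 (Il6ra) higher at 3 days than at 0 days, where 2.41% of all genes were lower and 4.08% higher. At 5 days against 0 days, 2 of the 5 members that reached 1 RPKM were lower (Il6 and Osm) and 2 were higher (Il6ra and Il6st), with 5.91% of all genes lower and 15.5% higher. From 3 to 5 days, 3 of 6 members were lower (Il6, Osm and Lif) and 1 was higher (Il6st), with 3.45% of all genes lower and 1.95% higher. The call of Il6st in that step (log2 ratio 1.18) was lost under TMM scaling (0.96) and with the length trend removed (0.89). The calls of Il6 and Il6ra at 3 against 0 days were also lost with the length trend removed (-0.80 and 0.88). In these libraries, Il6 and Osm were thus lower at 5 days than at 0 days and Il6ra and Il6st higher, while Stat3 differed by less than 2-fold in every comparison.

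**Figure D1:**
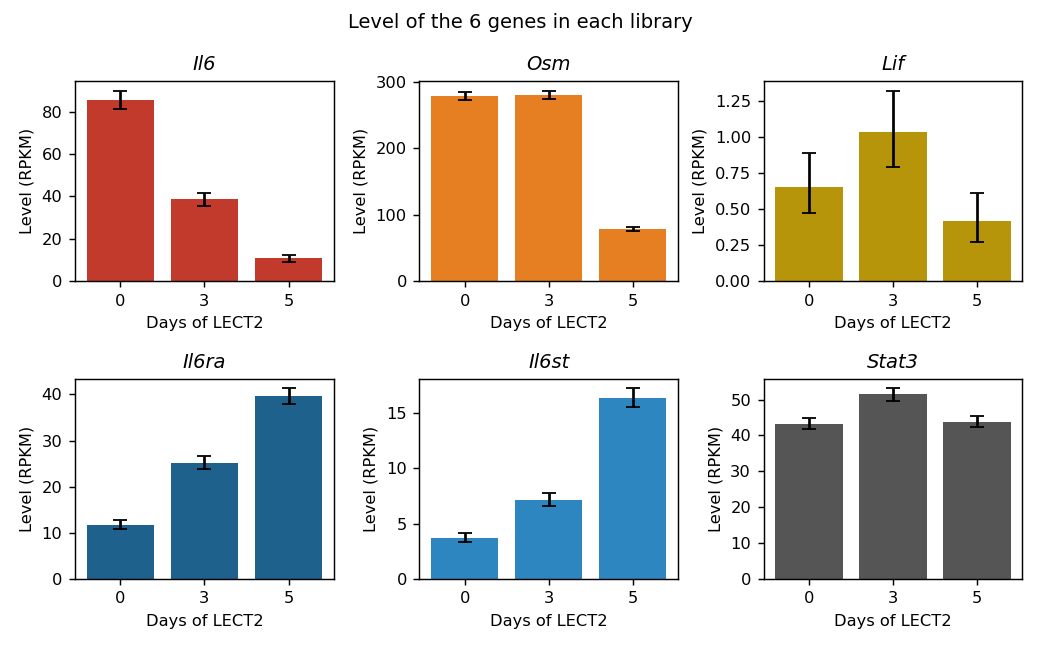
Level in RPKM (vertical axes, each from 0) of the 6 genes in the libraries of 0, 3 and 5 days of LECT2 (horizontal axes), with exact 95% Poisson intervals of the read counts as error bars. Il6 decreased at each step to 10.7 RPKM, Osm only after 3 days to 78.8 RPKM, and Il6ra and Il6st increased at each step to 39.6 and 16.4 RPKM.

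Il6 encodes the cytokine that gives the family its name, a product of activated macrophages, stromal cells and other cells. Its gene (Gene ID 16193) lies on the plus strand at chr5:30013114-30019981 in GRCm38, with 4 exons in its longest annotated transcript, and no other gene overlaps it. The level was 85.5 RPKM at 0 days (1442 reads), 38.6 at 3 days (636 reads) and 10.7 at 5 days (181 reads). The 3 libraries were thus in descending order, with intervals of 81.1 to 90.0, 35.7 to 41.8 and 9.23 to 12.4 RPKM that did not overlap. Against 0 days, the log2 ratio of -1.14 at 3 days (interval -1.28 to -1.01) was followed by one of -2.98 at 5 days (-3.22 to -2.77), which is 7.96-fold lower. At 5 days 62 genes, or 0.539% of those compared, had a lower log2 ratio than Il6. With the length trend removed the log2 ratios were -0.80 and -2.80, so that at 3 days Il6 no longer reached 2-fold.

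Osm was the most abundant of the 6 transcripts in every library. It encodes oncostatin M, a cytokine made largely by activated myeloid and T cells. The gene (Gene ID 18413, plus strand, 3 exons) lies at chr11:4236420-4241026, and Lif follows it on the same strand 16530 bases downstream. The level was 279 RPKM at 0 days (8254 reads), 281 at 3 days (8122 reads) and 78.8 at 5 days (2332 reads). Unlike Il6, Osm was at nearly the same level in the libraries of 0 and 3 days, with a log2 ratio of 0.01 (interval -0.03 to 0.06) that turned to -0.07 under TMM scaling, which sets library totals by the bulk of the genes. At 5 days the log2 ratio was -1.82 against 0 days (interval -1.89 to -1.76), and 2.02% of the genes compared had a lower one. Removal of the length trend left it at -1.97. Within a library the ratio of Osm to Il6 was 3.26 at 0 days, 7.28 at 3 days and 7.34 at 5 days, so the balance between these cytokine transcripts differed between 0 and 3 days and was alike at 3 and 5 days (intervals 6.71 to 7.90 and 6.31 to 8.59). With the length trend removed, the log2 change in this ratio at 3 days against 0 days was 0.88, under 2-fold, against 1.16 without removal.

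Lif, the neighbour of Osm at chr11:4257557-4272514 (Gene ID 16878, plus strand), encodes a cytokine known for its actions on stem cells and bone. It was scarce, with 41, 63 and 26 reads at 0, 3 and 5 days, or 0.658, 1.04 and 0.417 RPKM. The library of 3 days was the highest. Only the step from 3 to 5 days passed 2-fold, with a log2 ratio of -1.13 (interval of the count ratio -2.03 to -0.63), and it did not with a pseudocount of 1 (-0.52). Lif was not counted at 5 against 0 days, where it stayed under 1 RPKM in both libraries and the interval, -1.42 to 0.09, spanned 0. With the length trend removed its log2 ratios were 0.28 at 3 days, -1.13 at 5 days against 0 days and -1.43 at 5 days against 3 days. Osm was 424 times as abundant as Lif at 0 days and 189 times at 5 days.

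Il6ra encodes the IL-6 binding chain, present mainly on hepatocytes and leukocytes. The gene (Gene ID 16194) lies on the minus strand at chr3:89864059-89913196, with 10 exons, and the predicted gene Gm42809 overlaps it on the opposite strand. The level was 11.8 RPKM at 0 days (610 reads), 25.2 at 3 days (1277 reads) and 39.6 at 5 days (2054 reads), in ascending order with no overlap of the intervals. Relative to 0 days the log2 ratio reached 1.09 by 3 days (interval 0.96 to 1.24) and 1.74 by 5 days (1.62 to 1.89), a 3.37-fold higher level. Of the genes compared at 5 days, 2.30% had a higher log2 ratio. The values were 0.88 and 1.25 with the length trend removed, so that Il6ra passed 2-fold at 5 days only under that setting.

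Il6st encodes gp130, the chain common to the whole family and present on most cell types. It lies on the plus strand at chr13:112464070-112510086 (Gene ID 16195, 17 exons). The level was 3.73 RPKM at 0 days (316 reads), 7.16 at 3 days (591 reads) and 16.4 at 5 days (1385 reads). These libraries were also in ascending order, and the step after 3 days was the larger. The log2 ratio was 0.92 at 3 days (interval 0.74 to 1.14), short of 2-fold, and 2.10 at 5 days (1.96 to 2.31), a 4.39-fold higher level that 0.983% of the genes compared exceeded. Removing the length trend reduced these to 0.50 and 1.40. Il6ra stayed above Il6st in every library, at 3.15 times its level at 0 days, 3.52 times at 3 days and 2.42 times at 5 days.

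Stat3, which encodes the transcription factor downstream of gp130, differed little. The gene (Gene ID 20848, minus strand, 24 exons) is at chr11:100885098-100939540 and overlaps Stat5a on the opposite strand, so reads in the shared stretch cannot be assigned without strand information. The level was 43.3 RPKM at 0 days (3015 reads), 51.4 at 3 days (3495 reads) and 43.8 at 5 days (3049 reads). The library of 3 days was slightly higher than the others, with a log2 ratio of 0.25 (interval 0.18 to 0.32). That direction was not stable, since the log2 ratio was -0.10 with the length trend removed. At 5 days the log2 ratio was 0.02 (interval -0.06 to 0.09), -0.29 under TMM scaling and -0.60 with the length trend removed. RNA levels give no measure of STAT3 phosphorylation.

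**Figure D2:**
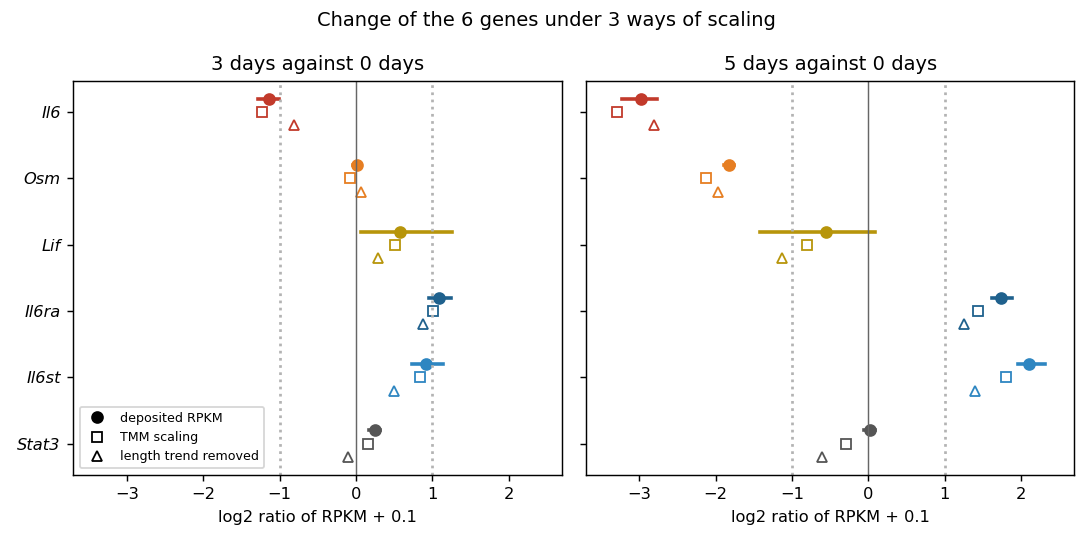
Log2 ratio of RPKM + 0.1 (horizontal axes, dotted lines at 2-fold) of the 6 genes at 3 days (left) and 5 days (right) against 0 days, from the deposited RPKM with the 95% counting interval of the count ratio as a bar, with TMM scaling, and with the length trend removed. At 5 days Il6 and Osm were past 2-fold lower and Il6ra and Il6st past 2-fold higher under all 3, while Stat3 moved from 0.02 to -0.60.

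Ratios between members within a library do not depend on the library total. Il6 was 22.9 times as abundant as Il6st at 0 days, 5.40 times at 3 days and 0.655 times at 5 days, so the order of ligand and signalling chain was inverted by 5 days. The ratio of Il6 to Il6ra was 7.27, 1.53 and 0.271 at 0, 3 and 5 days. With the length trend removed, the log2 change in the ratio of Il6 to Il6st at 5 days was -4.20, against -5.08 without removal. For the ratio of Il6 to Il6ra it was -4.05, against -4.73 without removal. Osm remained above Il6st, at 74.7 times its level at 0 days and 4.81 times at 5 days. From highest to lowest, the order at 0 days was Osm, Il6, Stat3, Il6ra, Il6st and Lif, and at 5 days Osm, Stat3, Il6ra, Il6st, Il6 and Lif. Neighbours in either order differed by more than their counting intervals, the closest being Stat3 (42.3 to 45.4 RPKM) and Il6ra (37.9 to 41.4 RPKM) at 5 days. The lengths behind these levels are those of the tables, and the longest annotated transcripts are longer, at 2343 bases for Il6 and 8639 bases for Il6ra.

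**Figure D3:**
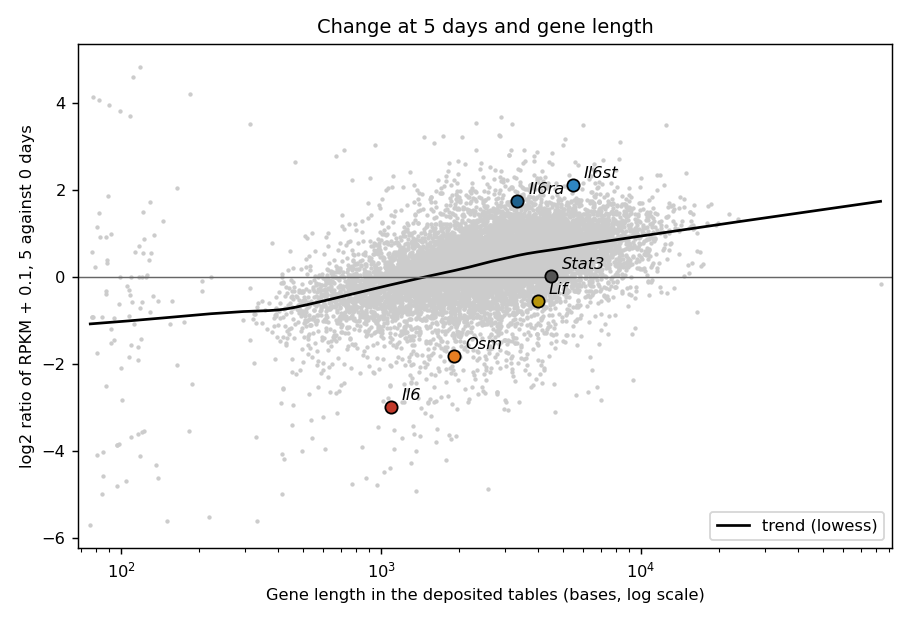
Log2 ratio at 5 days against 0 days (vertical axis) of each gene with at least 1 RPKM in either library (grey points) against gene length in bases (horizontal log axis), with the lowess trend as a line and the 6 genes as coloured points (Lif, under 1 RPKM in both libraries, is added). Relative to the trend Il6 and Osm lie at -2.80 and -1.97, and Il6ra and Il6st at 1.25 and 1.40.

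Beside the members Il6 and Osm, 4 ligands of the family reached 1 RPKM in the comparison of 5 with 0 days, of which 1 (Il11) was past 2-fold lower and 0 higher, beside 5.91% and 15.5% of all genes. With Il6 and Osm included, the count was 3 of 6 lower and the median log2 ratio -1.04 (0.31 for all genes), which largely restates these members. Il11, a cytokine of stromal cells, was near the limit with 41, 19 and 13 reads at 0, 3 and 5 days (log2 ratio -1.46), and its call was lost with a pseudocount of 1. Ebi3, the shared subunit of IL-27 and IL-35, had 39.5, 37.8 and 25.6 RPKM (log2 ratio -0.62), and Clcf1, a ligand of the CNTF receptor, 6.38, 12.3 and 11.0 RPKM (0.78, and 1.14, past 2-fold higher, with the length trend removed). Of the 7 receptor genes of the family with a row, 5 reached 1 RPKM, and at 5 days the 2 past 2-fold higher were the members Il6ra and Il6st themselves, with 15.5% of all genes higher. The median log2 ratio of the 5 receptor genes was 0.42 (0.31 for all genes), and -0.40 with the length trend removed. Il11ra1, the IL-11 receptor chain, was at 5.44, 2.36 and 3.07 RPKM at 0, 3 and 5 days, past 2-fold lower at 3 days (log2 ratio -1.17), a call that was lost with a pseudocount of 1. At 5 days its log2 ratio was -0.81, and -1.11, again past 2-fold, under TMM scaling. Osmr, the receptor chain through which mouse oncostatin M mainly acts, had 3, 4 and 1 reads at 0, 3 and 5 days, at or around the 3 reads taken as the floor. Osm itself, at 0 days, was above 98.3% of the rows with reads. Lifr had 366, 402 and 494 reads, or 2.44, 2.75 and 3.30 RPKM (log2 ratio 0.42).

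Soluble IL-6 receptor arises when membrane proteases cut Il6ra protein. Adam17, the main such protease, was at 12.4, 18.3 and 25.3 RPKM at 0, 3 and 5 days, and Adam10 at 32.9, 52.2 and 67.5 RPKM. Their log2 ratios at 5 days were 1.02 and 1.03, just past 2-fold, and fell short of it under TMM scaling (0.71 and 0.72). Of the 13 kinases, STATs and adaptors, 3 were higher (Jak2, Tyk2 and Sos1) and 0 lower, not far from the 15.5% of all genes higher, and under TMM scaling 1 (Tyk2) was higher beside 7.13% of all genes. Tyk2, a Janus kinase bound to gp130, was at 9.76 RPKM at 0 days and 25.3 at 5 days (log2 ratio 1.36). Jak2 was at 14.1 and 28.5 RPKM (1.01), and the Ras activator Sos1 at 2.88 and 6.74 RPKM (1.20). With the length trend removed, 0 of the 13 were past 2-fold in either direction, and Jak1, the kinase on which gp130 chiefly relies, had a log2 ratio of 0.52 without and -0.17 with removal.

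Socs3 encodes the inhibitor that STAT3 induces and that binds gp130 to end the signal. Its level was 29.8 RPKM at 0 days (1270 reads), 22.6 at 3 days (940 reads) and 8.32 at 5 days (354 reads). By 3 days the log2 ratio was -0.40 and by 5 days -1.83, and -2.21 at 5 days with the length trend removed. The ratio of Socs3 to Stat3 within a library went from 0.689 at 0 days through 0.440 to 0.190 at 5 days. The log2 change in that ratio at 5 days against 0 days was -1.85, and -1.60 with the length trend removed. Of 15 inhibitors that reached 1 RPKM, Socs3 alone was at least 2-fold lower at 5 days and 3 were higher, shares near the 5.91% lower and 15.5% higher of all genes. These were Socs6 (3.53 to 9.78 RPKM, log2 ratio 1.44), Pias2 (4.36 to 9.19 RPKM, 1.06) and the phosphatase gene Ptprc (0.949 to 6.45 RPKM, 2.64). The value of Ptprc rests on 82 reads at 0 days, few for a gene carried by nearly all leukocytes. Under TMM scaling 2 inhibitors were lower and 2 higher (10.2% and 7.13% of all genes). Once the length trend was taken out, the counts of inhibitors were 3 lower and 1 higher (7.61% and 5.05% of all genes).

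Of 25 genes that STAT3 is known to activate in one cell type or another, 9 were past 2-fold lower after 5 days and 0 higher, beside 5.91% of all genes lower and 15.5% higher. The median log2 ratio was -0.61, and at 3 days 0 of 25 passed 2-fold either way, beside 2.41% of all genes lower and 4.08% higher. Under TMM scaling 12 were lower (10.2% of all genes) and with the length trend removed 10 (7.61% of all genes), again with 0 higher. The 9 were Socs3, the immediate early genes Junb (716 to 210 RPKM at 0 and 5 days) and Fos (700 to 319 RPKM), the interferon-responsive factor Irf1 (91.3 to 42.5 RPKM), the acute phase genes Saa3 (5.46 to 1.70 RPKM), Lrg1 (160 to 72.2 RPKM) and Lcn2, and Cxcr2 and Mmp9. Lcn2, Cxcr2 and Mmp9 are products of maturing neutrophils and also stand among the neutrophil markers below. The anti-apoptotic target Mcl1 (392 to 198 RPKM, log2 ratio -0.99) and Pim1 (256 to 147 RPKM, -0.80) were lower by less than 2-fold, and Myc was at 25.3 and 32.9 RPKM (0.38).

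The promoter of Il6 binds several factors known to switch it on, and the 250 bases before its RefSeq start site are shown for the letters of their motifs, beside those of Lif, which was scarce, and of Socs3, the feedback inhibitor gene that STAT3 activates. The sequences are from RefSeq (GRCm38.p6), 5′ to 3′ on the strand of the gene, and distances are counted from the start sites of that table. GENCODE places the 5′ ends of Lif (4257557) and Socs3 (117970047) elsewhere, so that the last bases of the Lif stretch and the whole Socs3 stretch lie within its gene limits. Capitals mark matches, on either strand, to the letters of the NF-kB motif (GGNNNTTCC), the AP-1 motif (TGANTCA), the core of the cyclic AMP response element (ACGTCA), the C/EBP motif (TTNNGNAA) and the STAT motif (TTCNNNGAA), and a search for the TATA box letters (TATAAA) found none in these 3 stretches.

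Il6 (chr5:30012864-30013113, plus strand): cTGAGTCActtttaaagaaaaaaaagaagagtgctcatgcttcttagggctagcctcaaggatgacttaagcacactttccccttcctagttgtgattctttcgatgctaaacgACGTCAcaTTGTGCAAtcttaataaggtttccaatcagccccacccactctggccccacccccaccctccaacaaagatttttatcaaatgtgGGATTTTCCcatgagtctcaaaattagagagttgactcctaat

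Lif (chr11:4257318-4257567, plus strand): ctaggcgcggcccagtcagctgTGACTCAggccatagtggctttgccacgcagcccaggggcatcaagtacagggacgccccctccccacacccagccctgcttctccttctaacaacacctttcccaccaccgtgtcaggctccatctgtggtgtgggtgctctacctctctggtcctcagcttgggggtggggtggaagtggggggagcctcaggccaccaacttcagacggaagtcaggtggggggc

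Socs3 (chr11:117969367-117969616, minus strand): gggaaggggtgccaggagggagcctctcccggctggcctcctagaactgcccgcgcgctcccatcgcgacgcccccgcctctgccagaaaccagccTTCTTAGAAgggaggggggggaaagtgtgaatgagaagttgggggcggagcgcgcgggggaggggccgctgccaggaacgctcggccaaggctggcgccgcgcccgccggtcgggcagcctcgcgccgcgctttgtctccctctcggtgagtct

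The Il6 stretch held the AP-1 letters starting 249 bases before the start site, the cyclic AMP response element letters at 136, the C/EBP letters at 128 and the NF-kB letters at 43, and no STAT letters. Among the 32851 mouse promoters of the same length in the table, 6.75% held the AP-1 letters, 6.47% those of the cyclic AMP response element, 36.8% the C/EBP letters and 15.7% the NF-kB letters, and 12.4% held the TATA box letters. Socs3 held the STAT letters 154 bases before its start site, which 7.02% of promoters held, and none of the others. Lif held the AP-1 letters at 228 bases. Stretches of the same length before Il6ra and Il6st held no NF-kB, AP-1, cyclic AMP response element or STAT letters, and that of Il6ra held the C/EBP letters at 116 and 70 bases. That of Stat3, whose level differed little, held the NF-kB letters at 244 and 11 bases and the C/EBP letters at 206. These matches describe the letters only and are no measure of binding.

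Of 14 genes for factors that regulate Il6 transcription, 6 were at least 2-fold lower at 5 days against 0 days and 0 higher, with a median log2 ratio of -0.70, beside 5.91% of all genes lower and 15.5% higher. They were Nfkbia, an NF-kB inhibitor that NF-kB itself induces (991, 401 and 172 RPKM at 0, 3 and 5 days), Nfkbiz, a nuclear cofactor of NF-kB needed for Il6 induction (188, 136 and 33.8 RPKM), Atf3 (108, 101 and 42.0 RPKM) and the AP-1 genes Fos, Jun and Junb. Fos and Junb also stand among the lower STAT3 target genes above, so the counts of these lists overlap. Nfkbia was the one regulator of Il6 transcription past 2-fold at 3 days (2.41% of all genes lower, 4.08% higher), with a log2 ratio of -1.31 beside the -1.14 of Il6. The subunit genes Rela (43.5, 41.9 and 43.6 RPKM) and Nfkb1 (35.6, 47.0 and 57.4 RPKM) differed by less than 2-fold. The count was also 6 with the length trend removed (7.61% of all genes), and 7 under TMM scaling (10.2% of all genes).

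Il6 mRNA is short-lived, and of 10 genes for proteins that control its decay 2 were lower at 5 days and 1 was higher, beside 5.91% and 15.5% of all genes. With the length trend removed the counts were 3 lower and 0 higher (7.61% and 5.05% of all genes). The lower ones encode decay factors, Zfp36 (tristetraprolin, 1228 to 395 RPKM at 0 and 5 days, log2 ratio -1.64) and Zc3h12a (regnase-1, 39.7 to 17.9 RPKM, -1.14). Khsrp, also a decay factor, was at 31.9 and 69.0 RPKM (1.11), and under 2-fold with TMM scaling (0.80). The median of the 10 log2 ratios was 0.09, below the 0.31 of all genes.

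**Figure D4:**
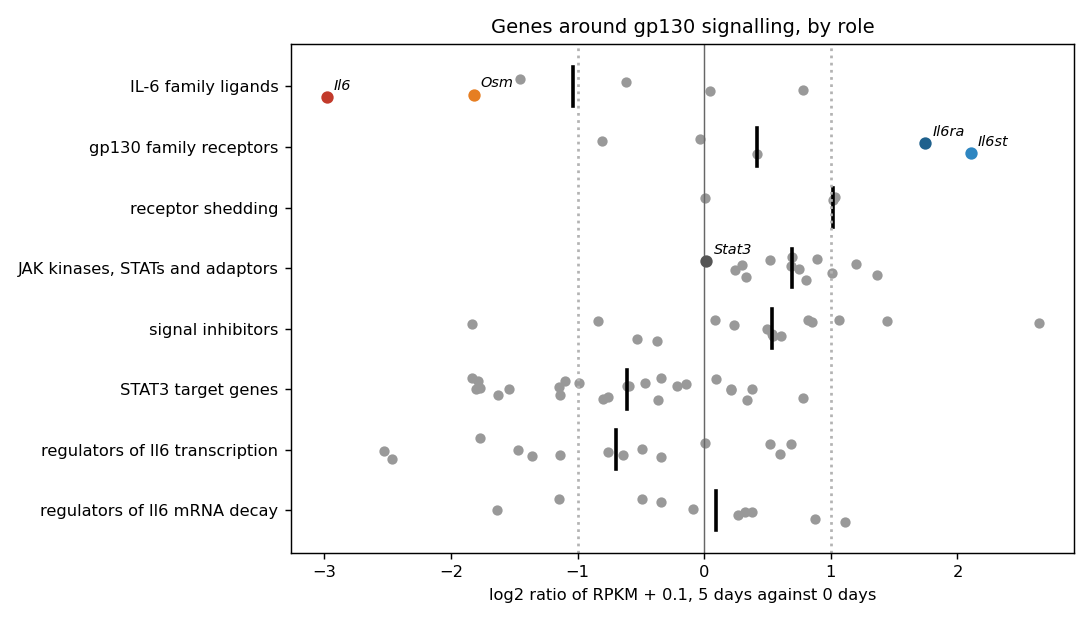
Log2 ratio of RPKM + 0.1 at 5 days against 0 days (horizontal axis, dotted lines at 2-fold) of genes around gp130 signalling that reached 1 RPKM in either library, in rows by role, each point a gene and each black bar the median of its row. The median is -1.04 for ligands, -0.61 for STAT3 targets and -0.70 for regulators of Il6 transcription, and 0.70 for kinases, STATs and adaptors, where it is 0.03 with the length trend removed, beside 0.31 for all genes.

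Markers of several cell types also differed between the libraries. In bulk BM, fewer cells of a type and less RNA per cell cannot be told apart. Each of the 10 late neutrophil markers that reached 1 RPKM was past 2-fold lower after 5 days, among them S100a9, the most abundant (log2 ratio -2.14) and Retnlg, the lowest (-3.96), with 5.91% of all genes lower, and 0 were lower at 3 days (2.41% of all genes). With the length trend removed 9 of the 10 were past 2-fold lower at 5 days (7.61% of all genes). Csf3r, the other listed neutrophil marker with a row, stayed under 1 RPKM, with 25, 57 and 20 reads at 0, 3 and 5 days. The summed level of the neutrophil list was 149807, 115887 and 41359 RPKM at 0, 3 and 5 days. Of 16 macrophage and monocyte markers, 8 were higher at 5 days and 1 was lower, beside 15.5% and 5.91% of all genes. TMM scaling left 5 higher (7.13% of all genes) and removal of the length trend 6 (5.05% of all genes). F13a1 had the highest log2 ratio, 2.34, and Cd14 the lowest, -1.99, while Ly6c2, the most abundant, had 0.29. The summed level of the macrophage list was 1625, 1942 and 2458 RPKM.

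Of 10 endothelial and stromal markers that reached 1 RPKM, 6 were lower at 5 days and 0 higher, beside 5.91% and 15.5% of all genes, with log2 ratios from 0.22 for Pdgfrb to -3.98 for the osteoblast gene Bglap (43, 30 and 2 reads) and 0.13 for Pecam1, the most abundant. The stromal sum was 104, 96.5 and 68.9 RPKM. T and NK cell markers summed to 292, 193 and 268 RPKM, with 4 of 15 lower at 3 days (2.41% of all genes; 2 with the length trend removed), 2 of 15 lower at 5 days (5.91% of all genes) and log2 ratios at 5 days from -1.99 (Cd3d) to 0.93 (Il7r), and mast cell and basophil markers to 1049, 801 and 767 RPKM, with 3 of 10 lower and 1 higher at 5 days (5.91% and 15.5% of all genes) and log2 ratios from -2.29 (Il4) to 1.78 (Ms4a2). Each marker with a row had reads in all 3 libraries. The part of cell composition in the levels of the 6 genes was not tested.

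For each member, the 3 genes nearest in the pair of log2 ratios at 3 and 5 days were sought among 8192 genes that averaged 5 RPKM or more. Nearest to Il6 were the activation marker Cd69 (406, 180 and 56.7 RPKM at 0, 3 and 5 days), the dendritic cell and B cell marker Cd83 (43.7, 21.9 and 5.90 RPKM) and Rasgef1b, at distances of 0.15 to 0.21 log2 units. Nearest to Osm were Dmwd, Sepn1 and the transcription factor gene Ets2 (90.5, 90.1 and 24.6 RPKM), within 0.06. For Lif they were Oas3, Arsg and Tob1, for Il6ra Tnpo1, Esyt1 and Ticam2, for Il6st the small nucleolar RNA Snora81, Dis3 and Papss2, and for Stat3 Nampt, Cdc14a and Stim2. The distance rests on 3 libraries and 2 ratios that share the 0-day library, and describes these libraries only.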

How the data were processed

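RNA of flushed BM cells was sequenced by the authors on an Illumina HiSeq instrument after TruSeq library preparation, and their methods name Cufflinks for quantitation. The labels list the genome build mm8. The aligner, the use of strand and the number of mice per library are not given in the sources used here. A supplementary legend calls the flushed BM cells mononuclear. The authors deposited 3 pairwise tables, with whole-number read counts per gene and RPKM values, scaled to gene length and to the reads on the listed genes. Among rows with reads, the RPKM of 18 at 0 days and 14 at 3 days departed from this scaling. A gene without reads is listed at 0.01 RPKM and was set to 0 here. The authors' own log2 ratio, P-value and FDR columns were not used.

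The deposited tables held 17559 rows under 17250 names, and a repeated name was represented by its most abundant row. Log2 ratios of RPKM + 0.1 were computed in Python 3.11.15 (pandas 2.3.3, scipy 1.17.1), with exact Clopper-Pearson intervals (95%) of the count ratio. A gene was compared where it had at least 1 RPKM in either library. TMM factors (edgeR 4.0.16), median-of-ratios size factors (DESeq2 1.42.0), other pseudocounts and minimums, a 4-fold threshold, totals without the 100 most abundant genes, summed rows and removal of a lowess trend on log gene length (span 0.3) were the alternatives. No count test was run, for want of replicates. The functions were tested on simulated data. Positions are from GENCODE M21 (GRCm38) and promoter sequences from RefSeq (GRCm38.p6), where 5 of the 6 members had one. Of 164 listed genes 160 had a row, 1 under an older name.

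The members, gene lists and the rule for naming genes were chosen with earlier results of these data known. Named were the members, each pathway gene past 2-fold at 5 against 0 days with at least 1 RPKM in any library and, in lists with none, the 2 most abundant, the most abundant and the extreme cell type markers, and the 3 nearest genes of each member. Some pathway genes under 2-fold (Ebi3, Clcf1, Lifr, Osmr, Il11ra1, Jak1, Mcl1, Pim1, Myc, Rela, Nfkb1) were named for their role after their values were seen.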

Additional observations from a re-analysis of the deposited data

How the results depend on the processing

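No paired analysis was possible because each time point has 1 library.

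The counts of members past the threshold moved as follows. At a 4-fold threshold, 0 were lower and 0 higher at 3 against 0 days (0.291% and 0.318% of all genes), 1 lower (Il6) and 1 higher (Il6st) at 5 against 0 days (1.62% and 1.33%), and 0 lower and 0 higher at 5 against 3 days (0.923% and 0.114%). Removal of the length trend left 0 lower and 0 higher at 3 against 0 days and 0 higher at 5 against 3 days. TMM and median-of-ratios scaling also gave 0 higher at 5 against 3 days, and totals without the 100 most abundant genes gave 0 higher at 3 against 0 days. The other 48 of 60 recomputed counts stayed within 1.5 times.

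Over the alternatives, the log2 ratio at 5 against 0 days ranged from -3.29 to -2.80 for Il6, from -2.13 to -1.81 for Osm, from 1.25 to 1.75 for Il6ra, from 1.40 to 2.13 for Il6st and from -0.60 to 0.02 for Stat3. At 3 against 0 days the ranges were -1.24 to -0.80, -0.08 to 0.07, 0.876 to 1.101, 0.50 to 0.94 and -0.10 to 0.25 in the same order. Stat3 turned to -0.0997 at 3 days with the length trend removed. Lif ranged from -1.13 to -0.23 at 5 days and from 0.28 to 0.65 at 3 days. The cause of these shifts was not tested beyond what each setting changes by construction. Depth limits Lif, Il11 and Osmr, and the spread between mice is unknown for every value.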

Other observations

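Ptprc and Csf3r, genes carried by nearly all leukocytes and by neutrophils respectively, had few reads in these BM libraries. Each has 2 rows under different transcript identifiers. The Ptprc rows had 82, 410 and 557 reads and 0, 5 and 7 reads at 0, 3 and 5 days, and the Csf3r rows 25, 57 and 20 reads and 3, 1 and 2 reads. How reads shared by such rows were counted is not given in the sources used here, and the value of Ptprc among the signal inhibitors rests on these rows.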
